A study of Homo sapiens with 8 samples.

Results

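The genes described here encode the proteins of the cytosolic ribosome. They were taken by name: every probe set with 1 platform gene symbol that begins RPL or RPS and a digit, together with RPLP1 and RPLP2, leaving out pseudogenes, the RPS6K kinases and paralogs whose names end in L or L1. This gave 71 genes with 198 probe sets, of which 67 genes with 192 probe sets are ribosomal proteins, 43 of the large subunit and 24 of the small subunit, among 18239 genes measured. The other 4 names (RPL26L1-AS1, RPL34-DT and a pair of Y-linked genes) were counted and kept out of the values below, and RPLP0, RPSA and RPS27A were not analysed here. The rule uses names and no measured value.

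Expression was measured on Affymetrix GeneAtlas arrays in the human NS-SV-AC line, which derives from salivary acinar cells and was immortalised. The cells were given either TNF-α at 20 ng/ml, an inflammatory cytokine that acts through NF-κB, or bovine serum albumin (BSA) as a control, and were collected 2, 6, 12 or 24 h later for RNA. There were 8 arrays, 1 for each treatment and time, all from this 1 cell line. With 1 array per condition, a difference at a single time has no error and no test, and the p-values below measure only the spread between these arrays.

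A ribosome joins a small subunit, which decodes the mRNA, to a large subunit, which forms peptide bonds and leads the new chain out through an exit tunnel. Ribosomal proteins are made in near equal numbers, excess copies are degraded, and some (RPL5, RPL11, RPL23) bind and inhibit MDM2 when assembly fails. Most of their mRNAs begin with a cytosine and a run of pyrimidines, the terminal oligopyrimidine (TOP) motif, through which mTOR signalling sets their translation. RPS3 is in addition known as a partner of the NF-κB subunit p65, and RPL13A as a reference gene in quantitative PCR.

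The starts of 11 members show this motif and its exceptions. They are drawn from RefSeq (GRCh38.p14) and run from 20 bases before the annotated transcription start to 25 bases from it, on the gene's own strand, so the first exon begins at base 21. Capitals mark the unbroken run of C and T at the start. The first 5 belong to genes whose value with TNF-α was at least 2-fold lower than with BSA at 24 h, the next 4 have the motif without such a difference, and RPL3 and RPL4 are genes of the first kind without the motif.
RPS9 (chr19:54200838-54200882, plus strand): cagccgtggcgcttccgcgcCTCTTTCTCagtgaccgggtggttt
RPS3 (chr11:75399498-75399542, plus strand): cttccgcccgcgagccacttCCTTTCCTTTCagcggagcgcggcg
RPL18 (chr19:48619154-48619198, minus strand): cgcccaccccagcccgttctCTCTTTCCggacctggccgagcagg
RPS14 (chr5:150449715-150449759, minus strand): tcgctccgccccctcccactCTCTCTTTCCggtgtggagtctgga
RPL29 (chr3:51995871-51995915, minus strand): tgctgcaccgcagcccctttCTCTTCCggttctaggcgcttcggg
RPL41 (chr12:56116613-56116657, plus strand): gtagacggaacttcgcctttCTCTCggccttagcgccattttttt
RPL34 (chr4:108620556-108620600, plus strand): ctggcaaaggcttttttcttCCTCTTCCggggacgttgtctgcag
RPL38 (chr17:74203658-74203702, plus strand): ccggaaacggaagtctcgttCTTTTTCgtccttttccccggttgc
RPL27A (chr11:8682772-8682816, plus strand): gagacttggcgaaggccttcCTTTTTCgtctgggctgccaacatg
RPL3 (chr22:39319599-39319643, minus strand): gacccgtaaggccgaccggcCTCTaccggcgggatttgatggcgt
RPL4 (chr15:66504831-66504875, minus strand): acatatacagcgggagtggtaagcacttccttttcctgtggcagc

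The RefSeq promoter table held a start for 57 of the 67 members. Of these, 42 (73.7%) had at least 1 start with C at the first base followed by 4 or more C or T without a break, read on the gene's strand only. The same letters stood at a start of 1404 of 27305 genes in the whole table (5.14%). RPL39, a small protein of the exit tunnel, had the longest run, 19 bases. A further 15 members had no such start, among them RPL3, whose run was 4 bases, and RPL4 and RPL10A, whose listed starts begin with a purine. These are matches of letters at annotated starts, and the starts in use in NS-SV-AC cells were not measured.

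Signals of the ribosomal protein genes lay at the top of the arrays' scale. Their median level was 12.16 on the log2 scale, against 5.16 over all genes, and 54 of the 100 genes with the highest signal were members, RPS2 (a small-subunit protein near the mRNA entry) being the first of all genes at 12.77. RPS28, RPL32 and RPL27 followed it among the members at 12.70, 12.70 and 12.69. A probe set's signal depends on its probes as well as on the transcript, so these levels place the genes on the array's scale and do not rank their mRNAs. Just 3 members were under 10: RPL36 at 8.43, RPL35A at 8.13 and RPL27A at 5.07. RPL27A was measured by 1 probe set and lay near the median of all genes.

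The RNA came from cells with low signals for most of the measured acinar markers. The 8 measured acinar markers had a median level of 3.59 with BSA. SLC12A2 was the exception: it lay above the median of all genes on each BSA array and read 7.23 at 2 h and 7.68 at 24 h. AQP5, the water channel of acinar cells, stayed between 3.88 and 4.13 on the 8 arrays. Of 4 epithelial markers, the keratins KRT18 and KRT8 read 9.84 to 10.33 and 6.37 to 8.91 with BSA, and the surface proteins EPCAM and CDH1 2.83 to 2.96 and 3.07 to 3.53. Leukocyte markers had a median of 3.11. Of 4 fibroblast matrix genes, LUM and DCN read 6.87 to 7.73 and 6.97 to 7.10 with BSA, and COL1A1 and COL1A2 3.72 to 3.86 and 3.29 to 3.55. The treatment itself registered: NFKBIA, the NF-κB inhibitor that NF-κB induces, was 3.27 ± 0.09 (SE, 4 arrays per treatment) higher with TNF-α (limma, adjusted p = 0.00365), and the difference lay between 3.12 and 3.43 at all 4 times.

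Through 12 h the signals of the ribosomal protein genes varied little, at levels near the top of the scale; whether signals there are compressed was not tested. Over the 6 arrays from 2 to 12 h, the range of a member (highest minus lowest array) had a median of 0.13, against 0.36 for all genes and 0.29 for the 574 other genes with a mean level of 10 or more. The widest member range was 0.58. The median level of the 67 genes read 12.18, 12.18, 12.19 and 12.18 on the BSA arrays at 2, 6, 12 and 24 h, and 12.19, 12.19, 12.15 and 12.11 on the TNF-α arrays. These medians lie within 0.08 of one another, the TNF-α array at 24 h being the lowest.

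At 2 h, TNF-α and BSA differed by a median of −0.01 over the members (lowest −0.09 for RPL8, highest 0.10 for RPL26). All 67 members lay within 0.2 of zero, where 85.4% of all genes and 95.8% of the 574 other genes at 10 or more did, and 37 were lower with TNF-α (57% of all genes were). No member was 2-fold apart, against 0.537% of all genes.

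The 6 h and 12 h pairs gave small differences, more often negative. The median was −0.03 at 6 h and −0.04 at 12 h, against −0.01 and −0.00 over all genes. Lower values with TNF-α were seen for 51 of the 67 members at 6 h (53% of all genes) and 55 at 12 h (50.8% of all genes), and among the 574 other genes at 10 or more for 315 and 368. At both times 66 of 67 members stayed within 0.2, where 65.2% and 63.8% of all genes and 446 and 454 of the 574 did. None was 2-fold apart, against 1.77% and 2.13% of all genes and 3 of the 574 at each time. With 1 array per condition these shifts have no error, and at 6 h the members' median level itself was not lower with TNF-α (12.19 against 12.18).

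RPL27A, a large-subunit protein, was the member outside 0.2 at both times. It read 4.90, 5.47, 5.39 and 4.51 with BSA at 2, 6, 12 and 24 h, and 4.98, 5.16, 4.97 and 5.22 with TNF-α. The values of both treatments overlap, and the difference ran from 0.08 at 2 h to −0.31, −0.42 and then 0.71. RPL36 and RPS3 came next on the low side over 2 to 12 h, with mean differences of −0.11 and −0.10, and RPS3A, a small-subunit protein, followed at −0.09. The highest mean was that of RPL14, a large-subunit protein, at 0.05, then RPS7, RPS13 and RPS24. None of these passed a test: with the 24 h pair left out, RPL27A differed by −0.22 ± 0.11 (SE, 3 arrays per treatment; limma, adjusted p = 0.459).

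**Figure D1:**
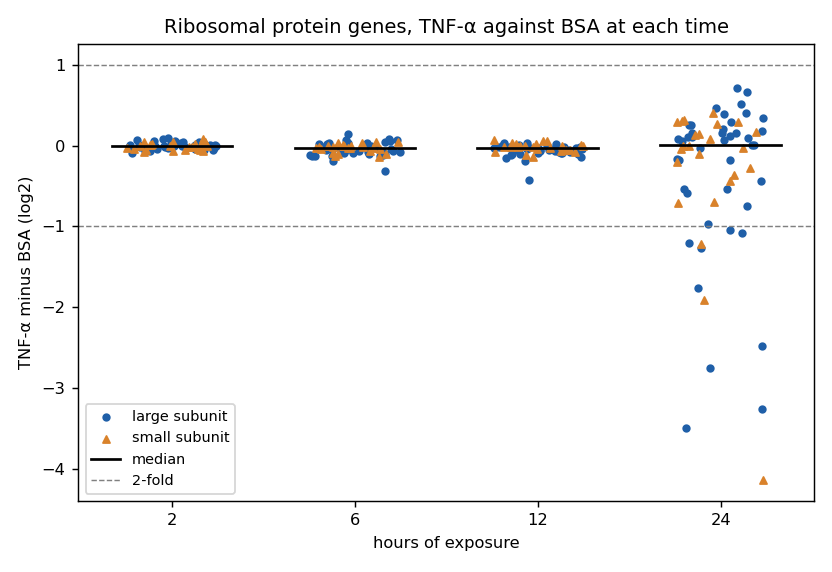
TNF-α minus BSA on the log2 scale for 67 ribosomal protein genes at each time, 1 point per gene (circles, large subunit; triangles, small subunit), with the median as a black bar and 2-fold as dashed lines. Points stay within 0.2 at 2 h, and at 6 and 12 h all but RPL27A do; at 24 h they run from −4.14 to 0.71 around a median of 0.01.

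The 24 h pair spread the members apart. Their median was 0.01, against 0.20 over all genes and 0.12 over the 574 other genes at 10 or more, but single genes ran from −4.14 to 0.71, with quartiles of −0.57 and 0.19. Of the 67, 12 (17.9%) were at least 2-fold lower with TNF-α, against 6.67% of all genes and 12.4% of the 574 other genes at 10 or more. None was 2-fold higher, against 6.1% of all genes and 2.26% of those 574. The mean level that picks the 574 includes the TNF-α array at 24 h. A gene that read far lower there could thus fall under 10 and leave them, while the 67 members were kept at any level. How far this lowers the 12.4% was not tested. 33 members were lower and 34 higher, where 29% of all genes were lower, and 27 stayed within 0.2, where 29.7% of all genes did. A minority thus had large negative values while the median stayed near zero.

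RNA quality moved with this array. The gap between the 3′ and 5′ control probe sets of GAPDH was 6.28 on TNF-α at 24 h and 0.20 to 0.37 on the other 7 arrays, and that of ACTB was 6.88 against 2.59 to 3.47. Values with TNF-α at 24 h below rest on this 1 array. The differences at 24 h rest on it and on the 1 BSA array at 24 h, which had the ACTB gap of 3.47. The part of RNA quality in them was not tested. In arrays of RNA from whole cultures, fewer cells of a type and less RNA per cell cannot be told apart either. Cell-type markers moved at the same time: at 24 h the 4 epithelial markers differed by −3.65 (KRT8), −2.48 (KRT18), 0.66 (EPCAM) and 1.30 (CDH1), and the 4 fibroblast markers by 1.71 (DCN), 1.61 (LUM), 0.15 (COL1A2) and 0.08 (COL1A1). Their part in the members' values was not tested.

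RPS9 had the lowest value at 24 h, followed by RPL8, RPL3, RPL10 and RPL4, all of the large subunit. RPS9, which binds early to the small subunit's RNA near the mRNA entry, read 10.86, 11.00, 10.69 and 9.82 with BSA at 2, 6, 12 and 24 h. With TNF-α it read 10.80, 10.96, 10.75 and 5.68, so the last array alone lay far below, 17.6-fold under its BSA partner. BSA at 24 h was already 0.87 below BSA at 12 h for this gene.

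RPL8, which sits beside the peptidyl transferase centre, read 11.87, 11.90, 11.77 and 11.83 with BSA and 11.78, 11.83, 11.72 and 8.34 with TNF-α, 11.2-fold lower at 24 h. RPL3, which reaches towards the same centre, read 11.28, 11.16, 11.10 and 11.27 with BSA and 11.24, 11.14, 11.10 and 8.01 with TNF-α, 9.61-fold lower. Both were within 0.1 of BSA at the 3 earlier times. RPL10, a late-joining protein needed to finish the large subunit, read 11.97, 12.03, 11.91 and 11.77 with BSA and 11.99, 11.96, 11.89 and 9.01 with TNF-α, 6.77-fold lower (−2.76, or −1.39 averaged over its probe sets). RPL4, which lines the exit tunnel, read 12.08, 12.07, 12.04 and 11.92 with BSA and 12.06, 11.97, 11.94 and 9.44 with TNF-α, 5.58-fold lower. In each of these genes, arrays of both treatments overlapped up to 12 h, and TNF-α at 24 h was the lowest of the 8.

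RPS3, which lines the mRNA entry channel, read 11.93, 12.07, 11.93 and 11.98 with BSA and 11.90, 11.95, 11.79 and 10.07 with TNF-α, 3.76-fold lower at 24 h. It was lower with TNF-α at all 4 times, by 0.03 to 0.14 through 12 h. Other members, RPL4, RPL8, RPL29 and RPLP1 among them, were also lower at all 4 times. RPL18, a large-subunit protein, read 11.76, 11.91, 11.74 and 12.19 with BSA and 11.79, 11.78, 11.64 and 10.43 with TNF-α. Its difference of −1.76 holds both a low TNF-α value and a BSA value at 24 h that was the highest of the 8.

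The remaining 5 past 2-fold were RPL14 (−1.27), RPS14 (−1.21), RPL29 (−1.21), RPL13 (−1.08) and RPL13A (−1.04). Averaged over probe sets, RPL14 (−0.49), RPL13A (−0.76) and RPL13 (probe sets at −1.08 and −0.43) did not pass 2-fold. RPS14 is the ribosomal gene lost in the 5q deletion of myelodysplastic syndrome. RPL13A read 12.38, 12.38, 12.25 and 12.63 with BSA and 12.36, 12.34, 12.22 and 11.58 with TNF-α. Just outside the threshold lay RPL9 at −0.98, RPL17 (beside the tunnel exit) at −0.74, RPS19 (the gene most often mutated in Diamond-Blackfan anaemia) at −0.71 and RPS2 at −0.70. The step at 2-fold therefore falls inside a continuous order of values. The large and small subunits had medians of 0.05 and −0.02 at 24 h, with 9 and 3 genes past 2-fold.

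**Figure D2:**
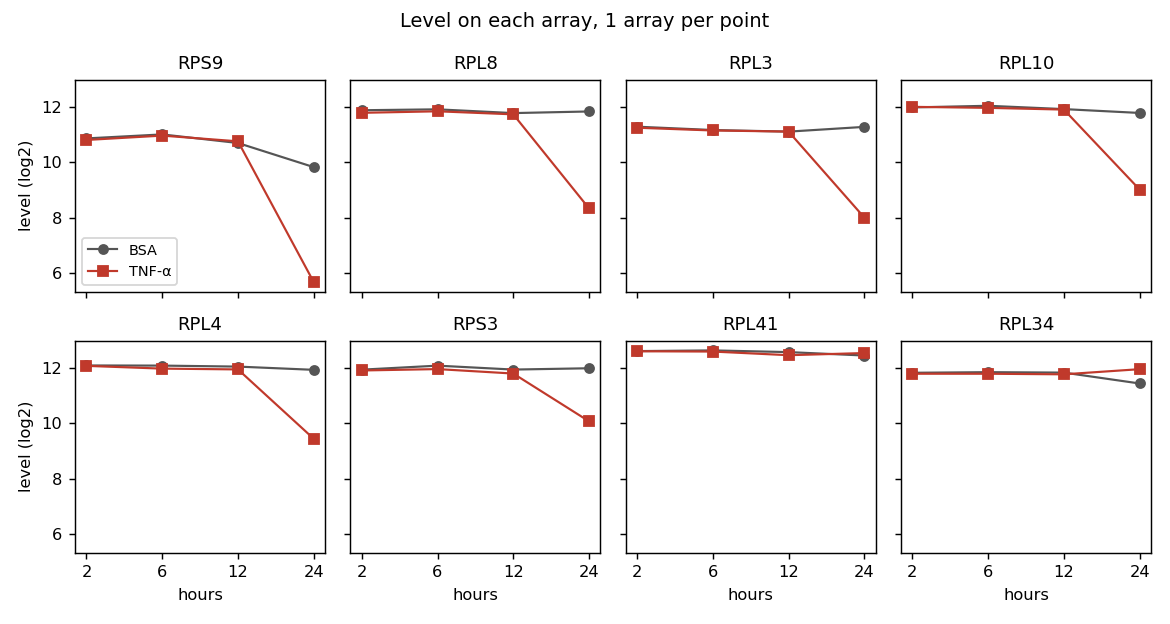
Level (log2) of 8 ribosomal protein genes by hours of exposure, 1 array per point, with BSA as grey circles and TNF-α as red squares. The TNF-α value at 24 h lies far below the other 7 arrays for RPS9, RPL8, RPL3, RPL10, RPL4 and RPS3, and within or just above them for RPL41 and RPL34.

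Members known for a role beside protein synthesis gave mixed values, RPS3 among them as given above. RPL5 and RPL11, which carry 5S RNA and bind MDM2, differed by 0.01, 0.08, −0.04 and 0.16 and by −0.02, 0.07, −0.01 and 0.12 at the 4 times. Averaged over their probe sets, the 24 h values were −0.57 and −0.19. RPL23, another MDM2 binder, was 0.41 higher at 24 h, where BSA had gone to 11.00 from 11.67 at 12 h and TNF-α to 11.41 from 11.64. RPS6, the target of the S6 kinases below mTOR, differed by −0.07, 0.03, −0.02 and −0.04. Its 24 h value turned to 0.02 when the arrays were quantile normalised again.

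The stalk proteins that recruit elongation factors parted in size: RPLP1 was −0.54 at 24 h and RPLP2 −0.17. RPLP1 read 12.12, 12.12, 12.06 and 12.17 with BSA and 12.06, 12.03, 11.97 and 11.63 with TNF-α. RPLP2 read 11.61, 11.68, 11.55 and 11.82 with BSA and 11.65, 11.55, 11.52 and 11.65 with TNF-α, so its values of both treatments overlap. RPS18, often used as a reference gene, was −0.44 at 24 h and within 0.1 before. RPL22, whose loss alters T cell development, was 0.38 higher at 24 h.

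At the upper end stood RPL27A (0.71), RPL10A (0.66), RPL34 (0.52), RPL38 (0.47), RPL23 (0.41) and RPS27 (0.40). RPL27A was read by 1 dim probe set (mean level 5.07). Its TNF-α value at 24 h lay inside the range of the other arrays, and BSA at 24 h differed from BSA at 12 h by −0.88. RPL10A read 11.39, 11.48, 11.40 and 11.40 with BSA and 11.37, 11.40, 11.30 and 12.06 with TNF-α, the last being the highest of the 8. The other probe set of RPL10A, also bright, differed by 0.09 at 24 h, and the mean of its probe sets by 0.38. RPL34 read 11.82, 11.84, 11.82 and 11.43 with BSA and 11.78, 11.78, 11.76 and 11.95 with TNF-α. RPL38, known for its part in Hox mRNA translation, read 11.17, 11.23, 11.10 and 10.81 with BSA and 11.24, 11.14, 11.00 and 11.28 with TNF-α. For RPL34 and RPL38 the BSA array at 24 h was the lowest of the 8 and TNF-α at 24 h the highest: BSA at 24 h lay below BSA at 12 h (−0.39 and −0.28), and TNF-α at 24 h lay 0.18 and 0.28 above TNF-α at 12 h. RPL41, the shortest ribosomal protein, differed by −0.01, −0.04, −0.11 and 0.09.

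TNF-α at 24 h lay below all 7 other arrays for 27 members (17.4% of all genes) and above all of them for 26 (46.4% of all genes), leaving 14 inside their range. Among the 574 other genes at 10 or more, 30.1% were below and 39.2% above. Across the 67 members, the other 7 arrays correlated with one another at r of 0.980 or more, and TNF-α at 24 h with them at 0.781 to 0.803. These correlations describe arrays that share the same probes and gene levels.

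Set against the preceding time of the same treatment, TNF-α at 24 h was at least 2-fold lower than TNF-α at 12 h for 10 members (7.19% of all genes), with a median of 0.04 and a lowest value of −5.07 (RPS9). BSA at 24 h was 2-fold lower than BSA at 12 h for 1 member (2.04% of all genes), with a median of −0.01. That member is RPL35A, a Diamond-Blackfan anaemia gene, named after its value was seen. It read 8.34, 8.53, 8.68 and 7.31 with BSA and 8.37, 8.42, 8.66 and 6.72 with TNF-α, lower at 24 h in both treatments. RPL35A is also among the 10 members counted with TNF-α, and RPL14, RPL13 and RPL13A are not.

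**Figure D3:**
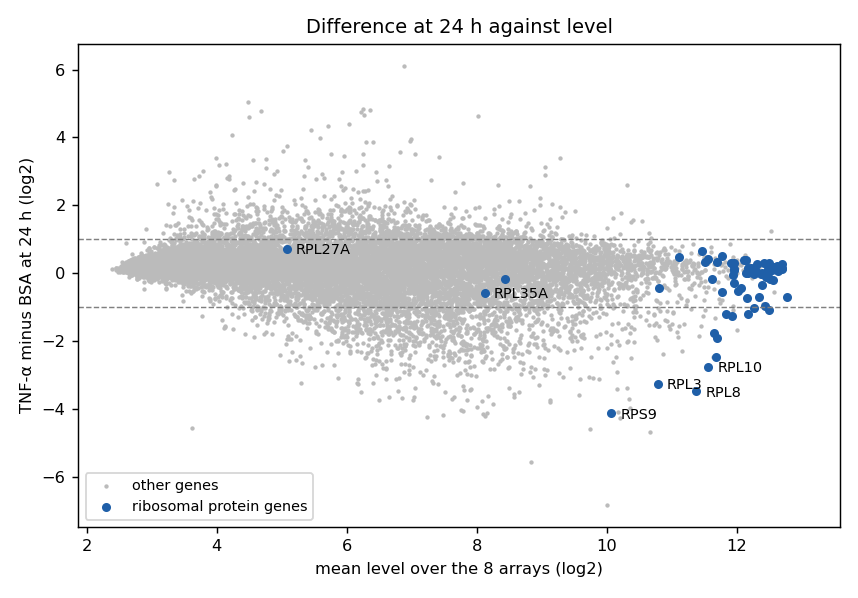
TNF-α minus BSA at 24 h (log2) against the mean level over the 8 arrays (log2) for each gene, with ribosomal protein genes in blue, other genes in grey and 2-fold as dashed lines. Most members lie at the far right between the 2-fold lines, and RPS9, RPL3, RPL8 and RPL10 lie below −2.7 among the brighter genes.

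Large negative values at 24 h were also common among other bright genes. With the other genes split into 10 groups by mean level, the share at least 2-fold lower at 24 h was 0% in the dimmest group and 13.8%, 15.1%, 14.3% and 12.0% in the 4 brightest. Genes at the bottom of the scale have little room to read lower, so the share in the dimmest group says little. The mean level includes the TNF-α array at 24 h, so a gene that read far lower there could move to a dimmer group. The 17.9% of the members is read beside the shares of the 4 brightest groups with that limit.

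Probe sets of a gene gave a second view of the 24 h values. Of the 55 members with more than 1 probe set, 30 (54.5%) had all of them on the same side of zero, 13 lower and 17 higher, and 25 were mixed. Over all genes with more than 1, 5986 of 11822 (50.6%) agreed in sign. The range within a gene had a median of 0.62, against 0.63 over all genes, and passed 1 for 15 members. By this count members agreed about as often as other genes.

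Much of the mixture lay between bright and dim probe sets. The 39 member probe sets with a mean level under 6 had a median of 0.16 at 24 h, and 31 of them were higher with TNF-α, where 71.0% of all 31915 probe sets under 6 were higher (median 0.15). The 128 at 10 or more had a median of −0.13, with 55 higher and 23 at least 2-fold lower. No share over all bright probe sets was taken beside these 2 counts. With probe sets at 10 or more alone (a threshold chosen after the values were seen), 30 of 40 members agreed in sign, 16 lower and 14 higher, with a median range of 0.27. The same restriction over all genes gave 163 of 242 (67.4%) and 0.39. The level used for it includes the TNF-α array at 24 h, so probe sets that read far lower there could drop out. The dim probe sets of members thus had a median close to that of dim probe sets in general. Probe sets near the bottom of the scale have little room to read lower.

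RPL3 had the widest range, with bright probe sets at −3.26 and −5.66 and a dim one at 0.31. The 3 bright probe sets of RPL10 lay at −2.76, −2.84 and −2.62, and its 3 dimmer ones at −0.24, −0.17 and 0.29. All 3 of RPL8 were lower (−3.49, −2.83 and −4.79), as were all 3 of RPL4 (−2.48, −1.94 and −1.14). For these genes the bright probe sets agree on a value below −1.9 and differ in its size.

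Other members disagreed among bright probe sets. RPL5 had 0.16 and −1.29, and RPL6, a large-subunit protein, had 0.01 and −1.06. RPL9 had −0.98, 0.25, −1.79 and −1.36, with a dim probe set at 0.08. RPL14 had 6 bright probe sets from −1.27 to −0.38, all lower. RPS6 had −0.04, −0.77 and 0.03. A statement on RPL5, RPL6, RPL9 or RPS6 at 24 h thus depends on the probe set read.

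RPS25, needed for initiation at some viral entry sites, and RPL32 had their outlying value in a dimmer probe set. RPS25 had 0.30 and −0.10 in its bright probe sets and −0.45 and −1.80 in the others. RPL32 had 0.11, −1.91 and 0.09, the −1.91 in a probe set with a mean level of 6.85. The narrowest ranges were those of RPL12 (0.01 in both), of RPL39 (0.15 and 0.18) and of RPL19, a protein of the bridge between subunits (0.02 and 0.05). The 12 members with 1 probe set, RPS9, RPS3, RPL29, RPS27, RPL23 and RPL27A among them, have no such check.

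Counted by probe set, 28 of 192 were at least 2-fold lower at 24 h, in 18 genes. The same share over all probe sets was not taken, so this count does not set the members apart from other genes. Those named _x_at, whose probes may match several transcripts, had a median of −0.10 (95 probe sets), _s_at ones, shared by related transcripts, −0.36 (39), _a_at ones 0.11 (21) and the rest 0.15 (37). Their median levels differed too, at 11.73, 11.96, 6.76 and 4.26, so this order follows the split into bright and dim. Ribosomal protein genes have many near-identical processed pseudogenes, so a probe set can read more than its named gene, and these values are uncertain to that extent.

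**Figure D4:**
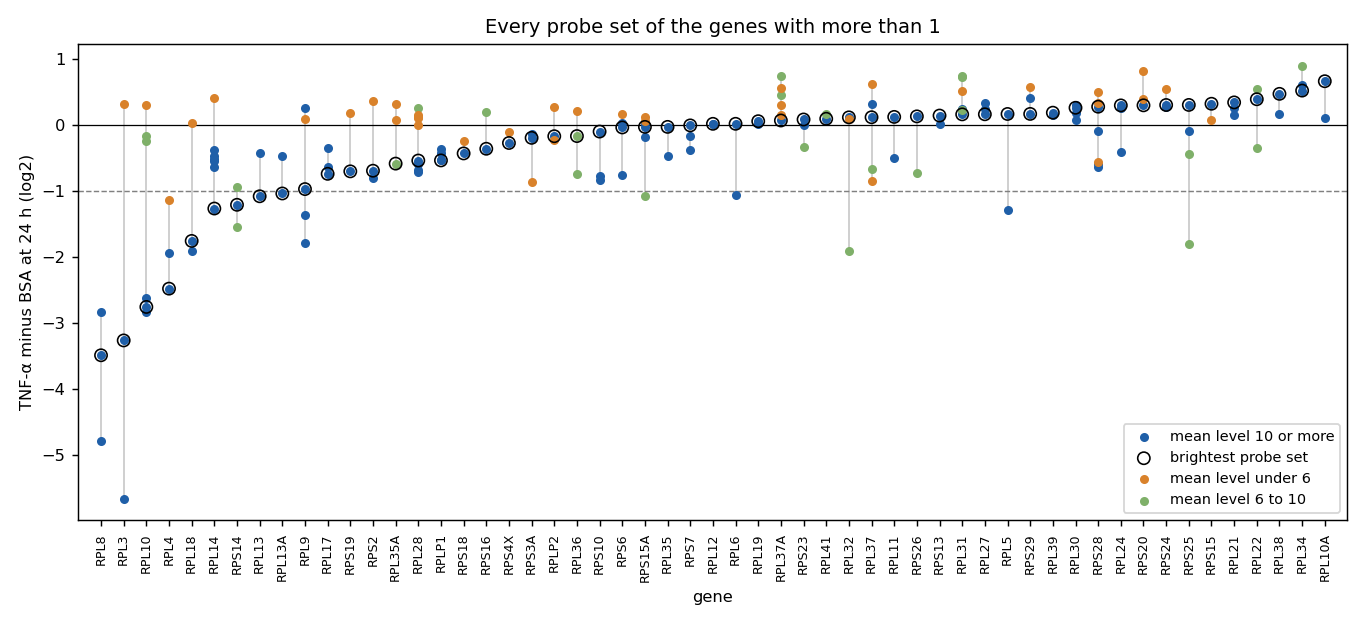
TNF-α minus BSA at 24 h (log2) for every probe set of the 55 members with more than 1, ordered by the brightest probe set (ringed); blue, green and orange mark mean levels of 10 or more, 6 to 10 and under 6, and the dashed line marks 2-fold lower. RPL8, RPL3, RPL10 and RPL4 stand low at the left with bright probe sets together, and dim probe sets lie mostly above zero across the plot.

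Tested over all 4 times with limma, no member was called with an adjusted p under 0.05, in either direction, and no member had an unadjusted p under 0.05. Over all genes 0.0164% were called, and 7.51% had an unadjusted p under 0.05. The smallest adjusted p of a member was 0.652. RPS9 had an estimate of −1.04 ± 0.78 (SE, 4 arrays per treatment; limma, adjusted p = 0.661), RPL8 one of −0.92 ± 0.65 and RPL3 one of −0.83 ± 0.62, since 1 of the 4 times carries the difference. RPL41 had −0.02 ± 0.08 and RPL5 0.05 ± 0.08.

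Without the 24 h pair, again no member was called by limma and none had an unadjusted p under 0.05, against 0.367% and 14% of all genes. The smallest adjusted p was 0.459. RPS9 then had an estimate of −0.01 ± 0.07, RPL8 −0.07 ± 0.07 and RPL3 −0.02 ± 0.07 (SE, 3 arrays per treatment). When limma tested whether the difference changes with log2 of the hours, no member was called (0% of all genes) and none had an unadjusted p under 0.05 (3.7% of all genes), with 0.827 the smallest adjusted p. A missed threshold with 1 array per condition does not show that the levels were equal.

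The TOP start was set beside the 24 h values. The 42 members with it had a median of −0.04 at 24 h, and 9 of them were at least 2-fold lower. The 15 without it had a median of 0.05, and 2 (RPL3 and RPL4) were at least 2-fold lower. RPL8 has no entry in the table. RPS9 and RPL27A, both with the motif as printed above, stood at −4.14 and 0.71, so members with the motif span the whole order. The 0.71 comes from 1 dim probe set. RPL34, a bright member with the motif, stood at 0.52.

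Ribosome genes that the naming left out were read beside the members. The 9 of 10 that were measured had a median of 0.26 at 24 h, near the 0.20 of all genes, none was 2-fold lower and 1, RPS27L, a p53-induced paralog of RPS27, was 2-fold higher (1.01). FAU, which encodes the small-subunit protein eS30, read 0.26. RPL36AL, at −0.97, was the lowest. None was called by limma.

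Other mRNAs listed as TOP mRNAs were close to BSA through 12 h and partly low at 24 h, as the ribosomal protein genes were. The 17 of 19 measured had medians of −0.02, 0.04, 0.02 and −0.34, with 5 at least 2-fold lower at 24 h, where 6.67% of all genes and 12.4% of the 574 were, and none called by limma. Of the 11 with a RefSeq start, 8 had the motif there. EEF1G, an elongation factor subunit, read 10.93, 11.00, 10.67 and 10.79 with BSA and 10.84, 11.01, 10.80 and 3.95 with TNF-α. The other 4 were EEF1D (−1.86), SNHG1 (−1.79), EIF4B (−1.78) and EIF3F (−1.24). EEF1A1, the elongation factor that brings aminoacyl-tRNA, was −0.91, and EEF2, the translocation factor, −0.13.

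Genes that build ribosomes or control their mRNAs had 0 called by limma too. Of 32 ribosome assembly genes measured, 8 were at least 2-fold lower and 1 higher at 24 h (median −0.22), where 6.67% and 6.1% of all genes were and up to 15.1% of genes in a level group were lower, with the nucleolar methyltransferases NOP2 and FBL at −2.59 and −1.53. MYC, which drives ribosome synthesis, was higher with TNF-α by 0.33, 0.40 and 0.42 through 12 h and differed by −0.29 at 24 h. Of 16 genes of mTOR signalling and initiation, 3 were 2-fold lower and 1 higher at 24 h (median −0.67), beside the same shares. DDIT4, an inhibitor of mTOR, differed by −1.25, −0.54, 0.12 and −3.05 at the 4 times.

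The 76 mitochondrial ribosomal protein genes, which encode the proteins of a separate ribosome, differed by medians of −0.05, −0.21, −0.06 and 0.02. At 24 h 17 were at least 2-fold lower, MRPS27 (−4.24) and MRPL12 (−4.21) the lowest, and 1 higher, beside 6.67% and 6.1% of all genes and 12.0% to 15.1% lower in the 4 brightest level groups. None was called by limma. Their median at 6 h, −0.21, lay further from zero than the −0.03 of the cytosolic set; that difference was not tested.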

How the data were processed

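RNA of 8 cultures was hybridised to 8 arrays. The authors deposited log2 values, 1 per probe set and array, made with RMA per the submitters' processing notes (background correction, quantile normalisation, probe summary). The software's version is not given in the sources used here, nor is a filter. Arrays have no read depth, so their number limits the precision. Symbols came from the platform annotation. 45253 of 49386 probe sets had 1 symbol, 1327 several, 2713 none listed and 93 were controls. A gene was read through its brightest probe set by mean level, with no filter. All 67 members matched RefSeq by Entrez identifier.

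All 18239 genes were tested with limma 3.58.1 (R 4.3.3; lmFit, eBayes, two-sided): treatment with time as a factor (3 residual degrees of freedom), and treatment by log2 hours (4 residual degrees of freedom), with Benjamini-Hochberg adjustment and a threshold of 0.05. The script was tested on simulated data. Members, lists and alternatives were chosen with earlier results of these data known. Genes were named by their place in the 24 h order, the mean difference over 2 to 12 h, level and probe-set range, with a fixed set of well-known members. Alternatives were the mean of probe sets, arrays centred or quantile normalised again, no _x_at probe sets, a level filter, array weights, a 1.5-fold threshold and leaving out each time.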

Additional observations from a re-analysis of the deposited data

How the results depend on the processing

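No alternative run gave a member called by limma, leaving out each time (both models) and array weights (treatment model) included: the count was 0 in each, and 0 to 3 members had an unadjusted p under 0.05. The median difference over the members moved slightly at 6 and 12 h, and at 24 h it moved most with the mean of probe sets. The members' median level varied by 0.0049 (SD) among the BSA arrays, a spread of levels that gives no error for these differences. At 6 h the median was −0.038 with arrays centred, −0.016 quantile normalised again and −0.021 without _x_at probe sets (52 members left), and at 12 h −0.057 with arrays centred and −0.023 without _x_at probe sets. At 24 h it was −0.165 with the mean of probe sets, 0.0013 with arrays centred, 0.018 quantile normalised again, −0.0057 without _x_at probe sets, 0.0052 over all probe sets and 0.0061 for members above the median level, so its sign is not settled. The 12 members at least 2-fold lower at 24 h became 9 to 11 under the other 2-fold settings that changed the count and 17 at 1.5-fold, and 2 were 1.5-fold higher. Those above all other arrays numbered 17 with the mean of probe sets and 16 without _x_at probe sets, and genes agreeing in sign 13 without _x_at probe sets, where fewer genes have more than 1; the cause of the other moves was not tested. Of 36 named genes, 5 changed sign at 24 h with the mean of probe sets (RPL5, RPL11, RPL32, RPS25 and RPS28), 1 (RPS6) when quantile normalised again, and none with arrays centred. With the mean of probe sets, 6 of the 36 moved by over 1.5-fold: RPL10, RPL14, RPL32, RPL4, RPL5 and RPS25 (−1.39, −0.49, −0.57, −1.85, −0.57 and −0.51). The treatment model, with time as a factor, pairs the arrays by time.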
